A study of Mus musculus with 2 samples.

Results

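The core of the cGAS-STING pathway was described through 4 of the 32432 genes in the count matrices: Cgas (ENSMUSG00000032344), Sting1 (ENSMUSG00000024349), Tbk1 (ENSMUSG00000020115) and Ikbke (ENSMUSG00000042349). They were chosen by gene symbol for their place in the pathway, and their raw UMI counts (unique molecular identifiers, each 1 captured transcript) were read in all 8 matrices. Over the 22052 cells kept they gave 7779 UMIs of Cgas, 19408 of Sting1, 13260 of Tbk1 and 6873 of Ikbke.

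The data are transcript counts from 3′ droplet sequencing of single live CD45-positive cells sorted out of tumours of B16-F10, a mouse melanoma line. Both groups were male mice of 8 to 12 weeks that carried R26CreERT2, a tamoxifen-dependent Cre recombinase made from the ubiquitous Rosa26 locus, as 1 knock-in and 1 wild-type allele. The Trex1 iKO group was Trex1 fl/fl and the Trex1 control group Trex1 wt/fl, so the control carried 1 conditional allele and was not wild type. All mice received 1000 B16-F10 cells in Matrigel in the skin of both legs, 1 mg tamoxifen on each of 3 days from day 5, and gave tumours on day 14. Each genotype was run as 1 pool of 4 samples marked by hashtag antibodies, and genotype cannot be told apart from pool in any comparison. The labels do not say whether a hashtagged sample was 1 mouse, and p-values measure the spread between hashtagged samples. In gene counts, iKO 1 was closest to iKO 2 and iKO 3 to iKO 4. Chi-square per degree of freedom was 23.6 and 7.66 there, against 94.6 to 213 for the other iKO pairs and 20.3 to 96.2 between controls. If such samples shared a mouse, there would be fewer independent iKO replicates than the 4 that the tests assume. The labels call the cells lymphocytes, but monocyte/macrophage-like cells made up 23.4% to 54.6% of the kept cells of a sample.

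cGAS is the sensor of this pathway: it binds double-stranded DNA in the cytosol and makes the cyclic dinucleotide cGAMP. cGAMP binds STING, an adaptor in the membrane of the endoplasmic reticulum, which moves to the Golgi and recruits the kinases TBK1 and IKK-epsilon (the product of Ikbke), and these activate IRF3 and NF-kB and with them type I interferon genes. TREX1 is an exonuclease that degrades cytosolic DNA upstream of cGAS, and several genes of the pathway are themselves known to respond to interferon.

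The deleted gene could not serve as a check of the labels. Trex1 had 0 UMIs in all 4 iKO samples and in control samples 1, 3 and 4, and 2 UMIs in control sample 2. With 0 counts the depth allowed up to 0.0333 to 0.158 UMIs per 1000000 UMIs of the profile (CPM) in the iKO samples and 0.0936 to 0.128 in those 3 controls, limits that cover counting error only. In the GRCm38 annotation (not the GRCm39 build of the count files) Trex1 (chromosome 9, bases 109057933 to 109059734, minus strand) and Atrip (109057933 to 109074124, minus strand) end at the same base, so 3′ reads of both genes overlap and their counts are uncertain. Atrip, which encodes the partner of the ATR kinase, was at 11.4 CPM ± 0.573 (SD, n = 4) in iKO and 8.59 ± 1.57 (n = 4) in control, with overlap (edgeR quasi-likelihood adjusted p = 0.112, DESeq2 adjusted p = 0.0191).

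The 8 samples held 1294 to 5722 kept cells and 16605777 to 90194260 UMIs, with a median of 12983 to 14490.5 UMIs per cell in iKO and 6405 to 11845.5 in control. No barcode was shared within a pool, and 0 to 6 were shared between samples of different pools. Cells were grouped into 37 clusters without use of the 4 genes, the other pathway genes or a list of interferon-stimulated genes picked by name. Clusters could still differ in the interferon response: cluster 15, with 95.3% iKO cells, was led by Cxcl10, Cxcl9, Gbp2 and Ifit2. The clusters were named as 11 leukocyte classes from listed markers, each written "-like" because the names come from marker genes alone. Tests were run on counts summed per sample, over all cells or over the cells of a class. A gene is called where the adjusted p of edgeR's quasi-likelihood test over all genes of that profile was under 0.05, and a log2 fold change is iKO over control, with its SE. This SE is the size of the change over the square root of the test's F, so it need not match the p.

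The promoter windows of Cgas and Ikbke are shown because these were the 2 members called higher in Trex1 iKO in monocyte/macrophage-like cells. They run from 250 bases before to 50 bases after the annotated start, which is base 251, read 5′ to 3′ on the gene's strand from RefSeq (GRCm38.p6). The Cgas window is chr9:78443188-78443487 and the Ikbke window chr1:131279514-131279813, both on the minus strand. Of the 4 members, Cgas, Tbk1 and Ikbke had an entry.

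Cgas: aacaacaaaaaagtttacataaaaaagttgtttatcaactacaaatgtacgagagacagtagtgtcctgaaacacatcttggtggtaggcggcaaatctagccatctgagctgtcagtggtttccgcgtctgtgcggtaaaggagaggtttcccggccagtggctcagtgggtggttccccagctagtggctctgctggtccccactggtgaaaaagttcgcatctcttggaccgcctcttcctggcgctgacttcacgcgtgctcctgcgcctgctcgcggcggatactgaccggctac

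Ikbke: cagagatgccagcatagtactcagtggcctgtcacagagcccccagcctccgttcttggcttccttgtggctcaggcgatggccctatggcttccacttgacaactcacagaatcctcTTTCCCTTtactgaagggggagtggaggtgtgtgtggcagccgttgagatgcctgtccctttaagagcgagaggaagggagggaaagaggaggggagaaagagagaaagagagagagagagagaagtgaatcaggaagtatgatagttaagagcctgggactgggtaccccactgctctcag

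Capitals mark an IRF element, AANNGAAA, the short site bound by interferon regulatory factors, searched on both strands. Ikbke held 1 match, at bases 119 to 126 of the window and read on the opposite strand, and Cgas and Tbk1 held 0. This motif was present in 23.9% of the 32851 windows of that length. The core of the interferon-stimulated response element, GAAANNGAAA, which contains the IRF element and was found in 3.44% of all windows, did not occur in the 3 windows. A match is a description of the letters only.

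Cgas, the sensor, had its highest means over all samples in conventional dendritic cells and monocyte/macrophage-like cells. Its mean level over samples of both genotypes was 35.4 CPM ± 9.21 (SD, n = 6) in cDC1-like, 30.6 ± 11.1 (n = 8) in cDC2-like and 28.6 ± 11.4 (n = 8) in monocyte/macrophage-like cells. Treg-like and CD8 T-like cells followed at 18.4 ± 6.28 and 16.4 ± 4.28 (n = 8 each). In control samples alone the order was closer: cDC1-like cells had a mean of 26.3 CPM (n = 2), cDC2-like 21.3, Treg-like 19.8 and monocyte/macrophage-like 18.7 (n = 4 each), against 40.0, 39.8, 16.9 and 38.4 in iKO (n = 4 each). The other lymphoid classes were lower, with 11.1 ± 9.24 (n = 4) in NK-like, 6.72 ± 3.20 (n = 8) in CD4 T-like and 4.77 ± 3.91 (n = 8) in B-like cells. Mature DC-like cells, the Ccr7-positive state that dendritic cells reach on activation, had 9.92 ± 3.93 (n = 8), neutrophil-like cells 7.03 ± 5.21 (n = 8), and pDC-like cells, the specialised interferon producers, 4.53 ± 2.61 (n = 5). All 6 cDC1-like profiles lay above all mature DC-like profiles, with medians of 34.9 and 9.17 CPM.

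Sting1, the adaptor, was found in all classes and was lowest in neutrophil-like cells. Treg-like cells had the highest mean over both genotypes, 97.0 CPM ± 12.5 (n = 8), followed by NK-like at 92.2 ± 14.4 (n = 4), cDC2-like at 91.4 ± 29.4 (n = 8), pDC-like at 85.7 ± 23.5 (n = 5), cDC1-like at 84.5 ± 11.7 (n = 6) and mature DC-like at 81.3 ± 18.8 (n = 8). They were first in neither genotype alone: in control pDC-like cells had 104 (n = 1) and Treg-like 96.6, and in iKO cDC2-like cells had 101 and Treg-like 97.3. Over both genotypes CD4 T-like cells had 69.5 ± 17.0, B-like 68.2 ± 12.7 and CD8 T-like 61.7 ± 7.85 (n = 8 each). The level in monocyte/macrophage-like cells was 58.3 ± 19.4 (n = 8). Neutrophil-like cells had 10.3 ± 6.52 (n = 8). The highest neutrophil-like profile, 18.7 CPM, was below the lowest profile of any other class, 38.9 in monocyte/macrophage-like cells.

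Tbk1, the kinase that STING recruits and that also serves RNA sensors, was present in every class. Its mean ran from 61.0 CPM ± 18.9 (n = 8) in neutrophil-like cells through 52.9 ± 24.0 (n = 4) in NK-like, 48.3 ± 12.7 in CD4 T-like, 47.2 ± 6.49 in Treg-like, 46.7 ± 5.11 in monocyte/macrophage-like and 44.2 ± 12.7 in B-like cells (n = 8 each). Mature DC-like, CD8 T-like and pDC-like cells had 39.7 ± 5.62 (n = 8), 37.0 ± 7.46 (n = 8) and 36.8 ± 14.4 (n = 5). The conventional dendritic cells were lowest, with 27.0 ± 4.22 (n = 8) in cDC2-like and 21.8 ± 3.20 (n = 6) in cDC1-like cells. Neutrophil-like cells thus stood first by the mean over both genotypes for this kinase and last for the adaptor. The first place was not held in control samples, where NK-like cells had 71.9 CPM (n = 2) and neutrophil-like cells 61.9 (n = 4), nor over all samples without iKO 2, where NK-like cells also came first.

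Ikbke, the inducible relative of TBK1, separated the classes into those with more of it and those with little. Over both genotypes its mean was highest in monocyte/macrophage-like cells, 31.2 CPM ± 8.85, and next highest in the CD4 T-like class, 28.0 ± 7.94, with Treg-like cells at 23.9 ± 5.22 (n = 8 each). The order of the first 2 turned with genotype: in control samples CD4 T-like cells had 28.7 CPM and monocyte/macrophage-like cells 23.2, and in iKO 27.2 and 39.2 (n = 4 each). Neutrophil-like, CD8 T-like and NK-like cells had 18.6 ± 8.97 (n = 8), 18.0 ± 5.28 (n = 8) and 17.9 ± 6.57 (n = 4). The remaining classes were pDC-like at 5.63 ± 5.21 (n = 5), B-like at 4.90 ± 3.60, cDC2-like at 4.49 ± 2.58, mature DC-like at 4.11 ± 1.24 (n = 8 each) and cDC1-like at 2.10 ± 1.39 (n = 6). No profile of the cDC1-like, cDC2-like or mature DC-like class was above 9.47 CPM, and no monocyte/macrophage-like profile was below 19.7. The cDC classes were therefore among the highest for the sensor and the lowest for this kinase.

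**Figure D1:**
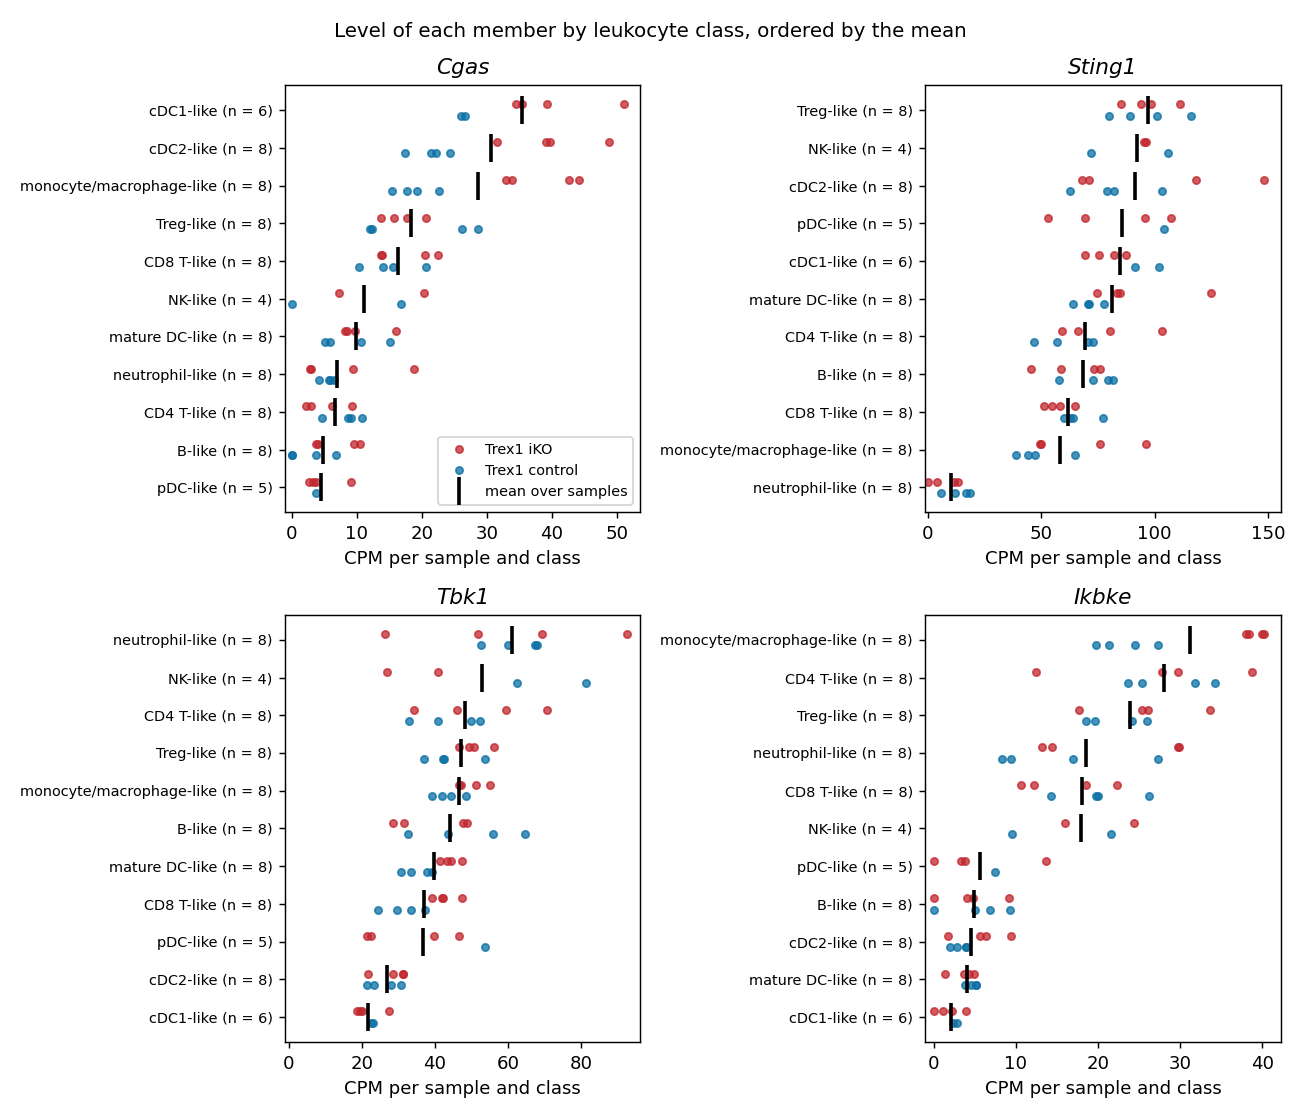
Level of each member (x axis, CPM) in every leukocyte class (y axis, ordered by the mean), with 1 point per sample and class of at least 20 cells, Trex1 iKO in red and control in blue, and the mean over samples as a black bar. Sting1 is low in neutrophil-like cells (10.3 CPM against 58.3 to 97.0 in the other classes), and Ikbke is low in dendritic and B-like cells (2.10 to 5.63 CPM). The red and blue points of Cgas separate in monocyte/macrophage-like and cDC2-like cells, and in cDC1-like cells, where control has 2 points.

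Most neighbouring classes in these orders were not shown to differ. Of the 40 neighbouring pairs (10 per gene, exact sign-flip permutation test of within-sample differences of log2(CPM + 1), two-sided), none passed after Benjamini-Hochberg adjustment over the 10 pairs of a gene, and 3 had an unadjusted p under 0.05. The largest step, Sting1 in monocyte/macrophage-like over neutrophil-like cells, was 2.74 log2 and higher in 8 of 8 samples, and its exact permutation p of 0.00781 was the smallest that 8 pairs allow (adjusted p = 0.0781). At that limit 1 pair alone could not pass this test.

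An edgeR quasi-likelihood test with the sample as block, over all genes, was run on 3 class pairs chosen after the levels were seen (n = 8 samples each). For some members these pairs are neighbours in the order, and the Sting1 step from monocyte/macrophage-like to neutrophil-like cells was called by it. The share of all genes called was 71.4% for monocyte/macrophage-like against neutrophil-like, 57.5% against cDC2-like and 77.8% against CD8 T-like cells, so the 3 of 4 members called in each pair stand near what most genes did. The median over all genes was 0.14, 0.01 and 0.00 log2 in these 3 fits, and 0.53, 0.01 and -0.22 when profiles were scaled by library size alone, so differences against neutrophil-like and CD8 T-like cells are relative to the scaling.

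Against neutrophil-like cells, monocyte/macrophage-like cells were higher by 1.93 ± 0.25 log2 (SE) for Sting1 (edgeR quasi-likelihood adjusted p = 2.64e-06) and 1.51 ± 0.22 for Cgas (1.08e-05), and Tbk1 differed by -0.79 ± 0.14 (0.000117). When scaled by library size alone these were 2.32 ± 0.26, 1.90 ± 0.22 and -0.40 ± 0.16 (0.0285 for Tbk1). Against cDC2-like cells, Ikbke was higher by 2.81 ± 0.18 (7.13e-09) and Tbk1 by 0.79 ± 0.08 (5.42e-07), Sting1 was lower at -0.65 ± 0.05 (1.15e-07), and Cgas differed by -0.12 ± 0.07 (0.162). Against CD8 T-like cells, Ikbke was higher by 1.09 ± 0.22 (0.000801), Cgas by 0.97 ± 0.16 (0.000164) and Tbk1 by 0.57 ± 0.10 (0.000277), while Sting1 differed by 0.11 ± 0.17 (0.576), and by -0.11 when scaled by library size alone. These fits pool both genotypes, and the gaps in Ikbke and Cgas to CD8 T-like cells were wider in iKO. For Ikbke the means were 23.2 and 20.1 CPM in control and 39.2 and 15.9 in iKO (n = 4 each). For Cgas they were 18.7 and 15.1 in control and 38.4 and 17.6 in iKO. Ikbke against neutrophil-like cells, 0.32 ± 0.19 (0.151), depended on scaling: by library size alone it was 0.71 ± 0.19 (0.0032).

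Shares of cells with a UMI were also taken after each cell was thinned to 2000 UMIs. Sting1 was then seen in 1.26% ± 0.673 (SD, n = 8) of neutrophil-like cells, the class with the lowest share, against 10.5% ± 3.27 of monocyte/macrophage-like cells. The median depths were 5853 and 14886 UMIs in iKO and 4025 and 14129 in control, and the shares before thinning were 3.75% ± 2.04 and 45.4% ± 8.54. Other thinned shares did not keep the order of the CPM means: Tbk1 was lowest in pDC-like cells, 3.79% ± 2.30 (n = 5), and not in cDC1-like cells, 4.19% ± 3.30 (n = 6), and Cgas was seen in 1.07% ± 0.941 of mature DC-like and 1.37% ± 0.962 of CD4 T-like cells (n = 8 each). No order is read from these shares.

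In whole samples, Trex1 iKO leukocytes held more Cgas transcript than controls. Cgas was at 31.2, 30.1, 27.6 and 28.5 CPM in iKO samples 1 to 4 and at 17.2, 15.5, 18.3 and 14.8 in control samples 1 to 4. The lowest iKO sample was above the highest control, and the difference was 0.84 ± 0.08 log2 (SE; edgeR quasi-likelihood adjusted p = 0.00193). It was the 1 member of 4 called, beside 2.53% of the 13459 genes tested. The 3 other members were also above 0, with a median of 0.34 log2 over the 4 members against -0.01 over all genes.

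Ikbke was at 23.9, 21.9, 28.0 and 30.8 CPM in iKO and 20.9, 16.6, 15.2 and 20.0 in control. The groups did not overlap, but the difference of 0.51 ± 0.16 did not pass (edgeR quasi-likelihood adjusted p = 0.129). Tbk1, at 47.1, 44.6, 42.2 and 45.2 against 38.9, 39.4, 42.1 and 39.6 CPM, also did not overlap, by the narrow gap between iKO 3 and control 3, and differed by 0.16 ± 0.07 (0.259). Sting1 overlapped, at 80.2, 65.3, 56.5 and 55.6 against 64.9, 55.8, 63.1 and 45.5 CPM (0.17 ± 0.14, adjusted p = 0.491). Non-overlap with iKO higher was thus seen for 3 of 4 members and for 8.40% of all genes tested. A whole-sample sum also moves with the makeup of the sample, so more cells of a type and more RNA per cell cannot be told apart in it: neutrophil-like cells, low in Cgas and Sting1, were 1.45% to 6.27% of cells in iKO and 10.5% to 21.7% in control.

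**Figure D2:**
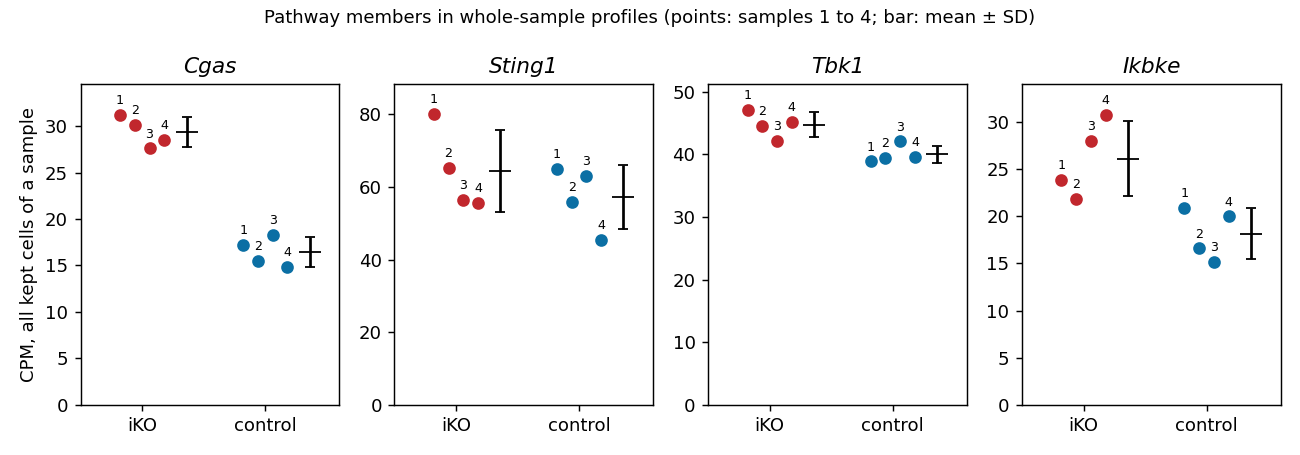
CPM (y axis, from 0) of each member summed over all kept cells of a sample, with numbered points for samples 1 to 4 of Trex1 iKO (red) and control (blue) and the mean ± SD beside them. Cgas shows the widest gap, 27.6 to 31.2 in iKO against 14.8 to 18.3 in control, and Sting1 overlaps.

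Within monocyte/macrophage-like cells, the sensor and the inducible kinase were both higher in Trex1 iKO. Cgas was at 42.6, 44.2, 33.9 and 33.0 CPM in iKO samples 1 to 4 and 17.7, 19.2, 22.7 and 15.4 in control. All iKO samples stood above all controls, and the difference was 1.02 ± 0.16 log2 (edgeR quasi-likelihood adjusted p = 0.00913). Ikbke was at 40.2, 38.4, 38.0 and 40.0 CPM in iKO and 27.3, 21.4, 19.7 and 24.5 in control, again without overlap, a difference of 0.71 ± 0.12 (adjusted p = 0.0102). The iKO samples lay close together for Ikbke, with an SD of 1.10 around 39.2.

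Sting1 in the same cells was at 96.1 and 75.7 CPM in iKO 1 and 2, above all controls, but at 49.7 and 49.6 in iKO 3 and 4, within the control values of 64.9, 44.1, 47.2 and 38.9. Its difference of 0.46 ± 0.26 did not pass (edgeR quasi-likelihood adjusted p = 0.269). Tbk1 was at 55.1, 51.3, 46.7 and 47.2 in iKO and 39.1, 44.3, 48.4 and 41.8 in control, and overlapped (0.17 ± 0.11, adjusted p = 0.307). Of the 4 members 2 were called and 2 did not overlap, where 11.6% of the 11735 genes tested were called and 14.4% had every iKO sample above every control. The median over the 4 members was 0.58 log2, against -0.00 over all genes.

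Thinned to 2000 UMIs per cell, Cgas was seen in 7.34% ± 0.961 (SD, n = 4) of iKO monocyte/macrophage-like cells and 3.02% ± 0.611 (n = 4) of controls, and Ikbke in 8.43% ± 0.891 and 4.50% ± 0.550. Without thinning these shares were 35.6% ± 1.36 and 19.0% ± 1.65 for Cgas, and 36.4% ± 3.20 and 24.0% ± 3.80 for Ikbke, at median depths of 14886 UMIs in iKO and 14129 in control. In B-like cells, the class with the lowest thinned share of Cgas, that share was 0.598% ± 0.949 (n = 8) at median depths of 4842.5 and 3790, and 1.76% ± 1.29 before thinning. For Ikbke the lowest thinned share among classes with all 8 samples was that of mature DC-like cells, 0.431% ± 0.597 at median depths of 15720.5 and 13421.5, and 5.45% ± 1.63 before thinning.

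Marker genes listed for other cell types moved with genotype in this class, and their part in the result was not tested. Such sums do not show which cells the transcripts came from. Kdr, on the endothelial list, was seen in 34.5% of the cells of cluster 24, a cluster of this class. The summed level of 6 NK markers was 26.5 to 113 CPM in iKO and 15.2 to 21.9 in control (5 of 6 with the higher mean in iKO), that of 5 cDC1 markers 61.0 to 71.9 and 33.6 to 54.2 (4 of 5), and that of 5 melanoma markers 14.2 to 32.2 and 6.49 to 13.2 (5 of 5). The 3 endothelial markers summed to 22.0 to 41.7 and 8.16 to 20.4 (3 of 3). Lower in iKO were the 7 neutrophil markers, at 180 to 307 and 438 to 565 (1 of 7). The 6 mature DC markers were lower as well, at 10.3 to 15.5 and 15.8 to 24.7 (1 of 6). No marker of these lists was at 0. The class's own 10 markers overlapped, at 13290 to 16036 and 12560 to 18306. The neutrophil and melanoma shifts were not particular to this class. Neutrophil markers summed to 78.4 to 120 in iKO and 295 to 499 in control CD8 T-like cells. In B-like cells they summed to 200 to 293 and 653 to 763. Melanoma markers were at 6.09 to 14.2 and 1.38 to 2.98 in CD8 T-like cells, and 16.6 to 32.6 and 3.40 to 9.34 in B-like cells. In mature DC-like cells the sums of both lists overlapped.

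The genotypes also filled the class from different clusters. Clusters 3, 4 and 15, led by Ccl12 and Ms4a7, by Gngt2 and Ace, and by Cxcl10 and Cxcl9, held 16.7%, 13.8% and 10.1% of the class in iKO and 2.83%, 5.15% and 1.01% in control. Clusters 0, 2 and 14, led by the heat shock genes Hspa1a and Hspa1b, by Vcan and H2-DMb1, and by Pf4 and Ccl7, held 9.60%, 7.97% and 4.91% in iKO and 27.2%, 22.5% and 14.8% in control. Cluster 15 had a mean Cgas level of 58.0 CPM ± 9.47 and Ikbke level of 52.1 ± 4.76 (SD, n = 3, all iKO). Cluster 0 had 13.0 ± 6.68 and 15.9 ± 5.93 (n = 8). Of the clusters named here, these were the highest and the lowest for both genes. Clusters 3, 4, 2 and 14 had mean Cgas levels of 37.9, 34.9, 31.0 and 23.6 CPM over both genotypes (n = 6, 7, 8 and 7). Their mean Ikbke levels were 41.6, 32.6, 27.5 and 41.5 CPM. For Ikbke, cluster 14, with the larger share in control, was thus level with cluster 3 and above cluster 4.

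In 8 clusters there were enough cells in both genotypes for a test within the cluster, and Cgas was above 0 in the 7 where it passed the filter on low counts. In cluster 17, led by Chil3 and Hp, Cgas was at 58.8, 67.2, 60.4 and 37.7 CPM in iKO and at 18.6, 29.3 and 35.3 in control samples 1, 3 and 4, control 2 being left out for having 5 cells. The groups did not overlap and the difference was 1.03 ± 0.25 log2, close to that over the whole class (edgeR quasi-likelihood adjusted p = 0.0128). Cgas was the 1 of 4 members called and the 1 without overlap there, beside 8.67% of genes called and 13.7% without overlap. The call was lost without iKO 2 (adjusted p = 0.0565) or control 1 (0.130).

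In cluster 0, Cgas was at 20.7, 20.5, 18.4 and 14.7 CPM in iKO and at 12.9, 4.49, 4.93 and 7.74 in control. The lowest iKO sample was above the highest control, and the difference of 1.32 ± 0.28 log2 was just called (edgeR quasi-likelihood adjusted p = 0.0459). Beside this 1 of 4 members called and without overlap, 1.70% of genes were called and 6.55% did not overlap. The call was lost without iKO 1, 2 or 3 or control 2, 3 or 4 (adjusted p = 0.0540 to 0.152).

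In cluster 16, led by Cxcl10 and Vcan, Cgas was at 69.7, 59.6, 33.4 and 46.6 CPM in iKO and 11.7, 37.3 and 22.6 in control samples 1, 3 and 4, control 2 having 1 cell. Control 3 lay within the iKO values, and the difference of 1.29 ± 0.36 was not called (edgeR quasi-likelihood adjusted p = 0.0570), but was without iKO 3 (0.0386) or iKO 4 (0.0397), with no filter on low counts (0.000193) and by library size alone (0.0480). None of the 4 members was called there, beside 7.09% of genes, while Tbk1 and Ikbke did not overlap, as 12.1% of genes with iKO higher. In cluster 14, with iKO 1 left out for having 14 cells, Cgas was at 26.9 to 34.8 against 15.8 to 25.3 CPM without overlap (0.60 ± 0.20, adjusted p = 0.274). Tbk1 did not overlap there either, and 0 of 4 members were called beside 0.260% of genes called and 8.31% not overlapping.

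The Cgas values of clusters 2, 4 and 25 overlapped, with differences of 0.55 ± 0.21, 0.75 ± 0.29 and 0.52 ± 0.26 log2. None of their 4 members was called, beside 3.69%, 6.24% and 0.527% of genes, although with no filter on low counts Cgas was called in cluster 4 (0.80, edgeR quasi-likelihood adjusted p = 0.0265). Tbk1 did not overlap in cluster 4, at 45.6 to 55.2 CPM in iKO and 28.7 to 38.9 in control (0.59 ± 0.18, edgeR quasi-likelihood adjusted p = 0.0831), as in 13.3% of genes. In cluster 22, led by Thbs1 and Spp1, Cgas had 19, 21, 3 and 12 UMIs in iKO and 14, 2, 1 and 7 in control and fell below the filter. Of its 3 members tested 0 were called, beside 0.537% of genes.

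Ikbke was called in none of the 8 clusters by the edgeR quasi-likelihood test, and had an unadjusted p under 0.05 in 4 of them. It was above 0 in 7, from 0.13 ± 0.24 log2 in cluster 14 to 1.15 ± 0.47 in cluster 17. In cluster 25, led by Ccl8 and Apoe, it was at 15.4 to 25.6 CPM in iKO and 17.6 to 31.0 in control (-0.19 ± 0.28). With no filter on low counts it was called in clusters 4 (0.96, adjusted p = 0.00651) and 17 (1.16, adjusted p = 0.0164).

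**Figure D3:**
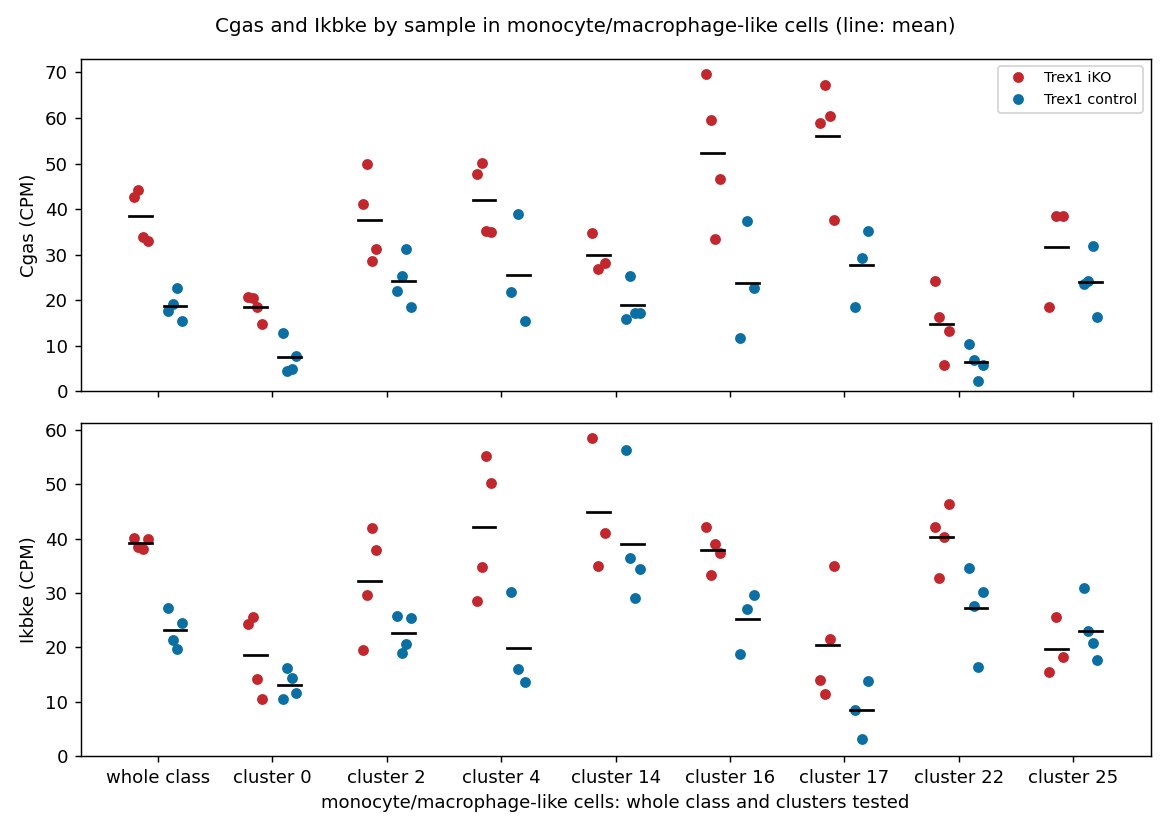
Cgas (top) and Ikbke (bottom) in CPM (y axis, from 0) in the monocyte/macrophage-like class and in its 8 tested clusters (x axis), with 1 point per sample of at least 20 cells, Trex1 iKO in red and control in blue, and a line at each mean. Cgas separates the genotypes in clusters 0, 14 and 17 as in the whole class, and Ikbke in the whole class and in cluster 16.

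In cDC2-like cells, which present antigen to CD4 T cells, Cgas was also higher in iKO. It was at 39.7, 48.8, 31.6 and 39.1 CPM in iKO and 22.1, 21.4, 24.4 and 17.4 in control, without overlap (0.92 ± 0.17 log2, edgeR quasi-likelihood adjusted p = 0.0229). Of the 3 members tested 1 was called and did not overlap, beside 2.35% of 9105 genes called and 5.38% without overlap. The call depended on how cells were assigned and on single samples: with coarser clusters (Leiden resolution 1) the difference was 0.82 with an adjusted p of 0.0580, and without iKO 1 or 2 or control 2, 3 or 4 the adjusted p was 0.0547 to 0.0869.

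Sting1 in cDC2-like cells was at 148 and 118 CPM in iKO 1 and 2 and at 70.9 and 68.1 in iKO 3 and 4, against 103, 82.0, 79.2 and 62.7 in control (0.33 ± 0.25, edgeR quasi-likelihood adjusted p = 0.530). As in monocyte/macrophage-like cells, iKO 1 and 2 were above all controls and iKO 3 and 4 among them. Tbk1 was at 21.8 to 31.2 and 21.4 to 30.6 CPM and differed by 0.15 ± 0.16. Beside these values the 6 cDC2 markers summed to 443 to 1759 CPM in iKO and 1486 to 2211 in control (0 of 6 with the higher mean in iKO), 5 melanoma markers to 5.20 to 9.83 and 0.725 to 3.06 (5 of 5), and 7 neutrophil markers to 71.6 to 120 and 211 to 464 (1 of 7), with none of these at 0, and their part was not tested.

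In CD8 T-like cells none of the 4 members was called by the edgeR quasi-likelihood test, beside 3.69% of 9796 genes, and Tbk1 had an unadjusted p under 0.05. Tbk1 was at 41.9, 39.2, 42.1 and 47.5 CPM in iKO and 33.5, 37.2, 29.7 and 24.4 in control. The groups did not overlap, as in 5.76% of genes with iKO higher, and the difference of 0.46 ± 0.13 log2 had an adjusted p of 0.0784 by the edgeR quasi-likelihood test (DESeq2 0.0512). With the coarser clusters it was called, at 0.51 (adjusted p = 0.0479).

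Sting1 in CD8 T-like cells was at 54.8, 51.4, 64.9 and 58.1 CPM in iKO and 60.1, 64.1, 77.3 and 62.6 in control, an overlapping difference of -0.18 ± 0.11 (edgeR quasi-likelihood adjusted p = 0.395). Cgas, at 22.5, 20.5, 13.7 and 13.9 against 20.6, 10.3, 14.1 and 15.5 (0.29 ± 0.24, adjusted p = 0.531), and Ikbke, at 10.6, 12.2, 22.3 and 18.5 against 14.3, 20.0, 19.7 and 26.2 (-0.37 ± 0.27, adjusted p = 0.471), were mixed between the groups. iKO samples 1 and 2 gave 1274 and 2505 of the CD8 T-like cells, and the other 6 samples 173 to 492 each. Clusters 5 and 7 held 20.2% and 20.5% of the class in iKO and 9.41% and 3.67% in control, and clusters 10 and 19 held 12.2% and 5.94% in iKO and 23.4% and 29.4% in control. Cluster 19, led by Tcf7 and Lef1, was weakly marked. Cd8a was in 52.6% of its cells, just past the 50% needed for the name, Cd4 in 13.2% and Trdc in 12.1%. With the coarser clusters, a cluster of 1340 cells led by Txk and Tcf7, with Cd8a in 42.2%, stayed unnamed and outside the class.

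In the other classes no member was called by the edgeR quasi-likelihood test or by DESeq2. In mature DC-like cells Tbk1 was at 44.4, 43.2, 41.3 and 47.5 CPM in iKO and 37.8, 30.7, 39.2 and 33.5 in control, without overlap (0.36 ± 0.14, unadjusted p = 0.0273 by edgeR), as were 2.19% of genes, and Sting1 differed by 0.40 ± 0.15 (unadjusted p = 0.0217 by edgeR) with overlap. In that class 0 of 3 members and 0.0405% of genes were called.

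In neutrophil-like cells Ikbke differed by 0.70 ± 0.42 log2, Tbk1 by 0.11 ± 0.26 and Sting1 by -0.77 ± 0.55 (0 of 3 members, 1.42% of genes). In CD4 T-like cells Sting1 differed by 0.34 ± 0.21, Tbk1 by 0.16 ± 0.23 and Ikbke by -0.06 ± 0.29 (0 of 3 members, 2.97% of genes). Treg-like cells gave -0.37 ± 0.29 for Cgas, 0.01 ± 0.15 for Sting1, 0.21 ± 0.16 for Tbk1 and 0.15 ± 0.23 for Ikbke (0 of 4 members, 1.53% of genes). All of these differences lay within a spread that the test did not pass, and both groups overlapped in each.

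B-like cells gave -0.09 ± 0.23 for Sting1 and -0.17 ± 0.27 for Tbk1 (0 of 2 members, 2.91% of genes). Counts of at most 12 UMIs a sample of Cgas in CD4 T-like cells and at most 8 in B-like cells fell below the filter on low counts, as did Cgas in neutrophil-like cells and Ikbke in B-like, cDC2-like and mature DC-like cells. NK-like, cDC1-like and pDC-like cells were not tested, because the minimum of 3 samples of 20 cells in each group was not met. In cDC1-like cells Cgas was at 35.4, 39.2, 34.5 and 51.0 CPM in iKO samples 1 to 4 and at a mean of 26.3 ± 0.438 (SD, n = 2) in control samples 3 and 4.

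**Figure D4:**
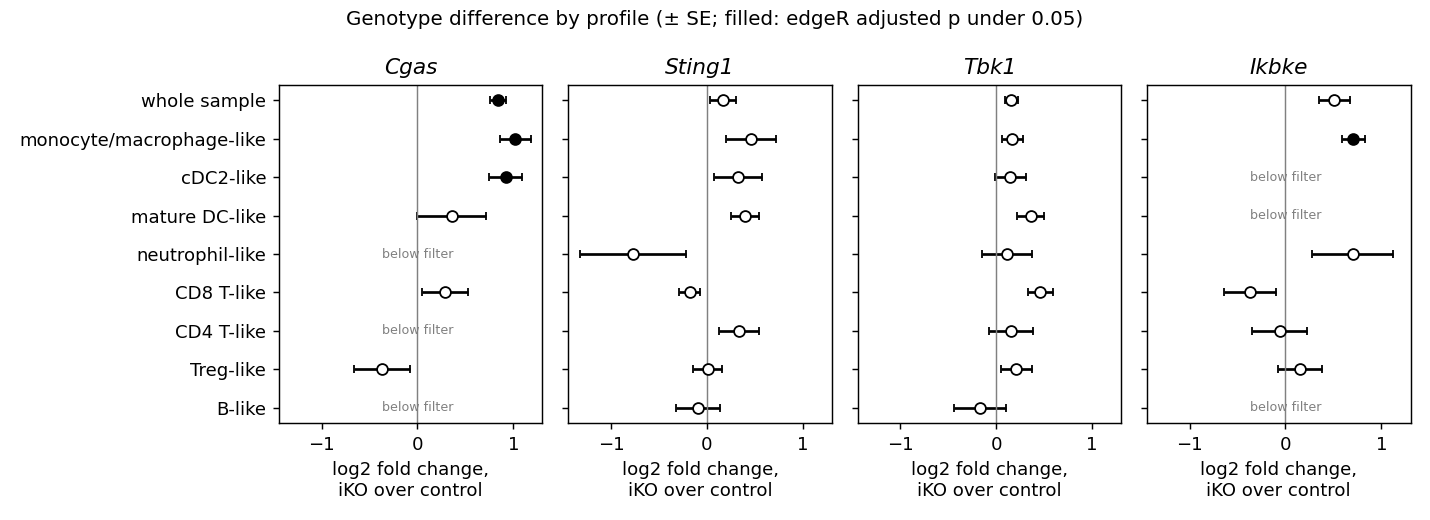
Log2 fold change, Trex1 iKO over control (x axis), of each member in the whole sample and in 8 classes (y axis), with the SE as a bar and a filled point where the edgeR adjusted p was under 0.05. The filled points are Cgas in the whole sample (0.84), monocyte/macrophage-like (1.02) and cDC2-like cells (0.92), and Ikbke in monocyte/macrophage-like cells (0.71).

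Whether the genotype difference itself differed between monocyte/macrophage-like and CD8 T-like cells was tested over the 8 samples by exact permutation of genotype on the within-sample difference of log2(CPM + 1). The genotype effect was larger in monocyte/macrophage-like cells by 0.78 log2 for Cgas (exact permutation p = 0.0286, adjusted over the 4 members 0.114), 1.09 for Ikbke (exact permutation p = 0.0571, adjusted 0.114) and 0.63 for Sting1 (exact permutation p = 0.171, adjusted 0.229). For Tbk1 it was smaller, at -0.25 (exact permutation p = 0.229, adjusted 0.229). None passed after adjustment, and 0.0286 is the smallest p that 4 samples against 4 allow in this two-sided test, so a call in 1 class and not in the other is not shown to be a difference between them.

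A list of 51 further pathway genes in 7 groups was read beside the 4 members. In monocyte/macrophage-like cells 46 were tested, of which 6 rose and 1 fell by the edgeR quasi-likelihood test, beside 11.6% of all genes called in this class, so the count stands near that of all genes. The median of the list was 0.13 log2 against -0.00 over all genes. The IRF and NF-kB group held 3 of the 6 among 9 tested: Irf7, the interferon-inducible IRF that amplifies type I interferon, rose by 2.80 ± 0.39 log2 (adjusted p = 0.00698), and the noncanonical NF-kB subunits Nfkb2 and Relb rose by 0.69 ± 0.15 (0.0209) and 0.56 ± 0.15 (0.0407). Irf7 stood at 1104, 1160, 497 and 581 CPM in iKO and 155, 130, 136 and 55.6 in control. Irf3, the factor TBK1 phosphorylates, was at 23.9 to 26.2 and 19.3 to 24.1 CPM (0.20 ± 0.10, adjusted p = 0.213).

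The other groups had 0 to 2 calls each, too few to set against the 11.6% of all genes called. Among partners and brakes of cGAS, 1 of 7 tested rose: Trim14, which recruits a deubiquitinase that stabilises cGAS, was at 8.54 to 13.7 CPM in iKO and 4.69 to 7.16 in control (0.84 ± 0.22, edgeR quasi-likelihood adjusted p = 0.0383). Of 14 genes of STING retention, traffic and turnover 1 rose, Zdhhc7, a palmitoyltransferase that acts on STING, at 19.5 to 20.9 against 13.5 to 16.5 (0.41 ± 0.08, 0.0168). Of 9 adaptors and regulators of the kinases 1 rose, Azi2, the adaptor NAP1 that binds TBK1 and IKK-epsilon, at 55.6 to 70.6 against 40.8 to 49.4 (0.48 ± 0.12, 0.0363). In the same group 1 fell, Ppm1a, a phosphatase of STING and TBK1, at 36.7 to 44.5 against 41.9 to 51.6 (-0.29 ± 0.08, 0.0498). None of 4 genes of cGAMP transport and breakdown and neither of 2 other adaptors that feed TBK1 was called. The 1 gene tested of the interferon output group was at -1.28 log2, lower in iKO, and was not called either.

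Leaving out any 1 sample kept the Irf7 call in monocyte/macrophage-like cells in all 8 fits. The calls of Trim14, Zdhhc7, Azi2, Ppm1a, Nfkb2 and Relb were kept in 2, 5, 3, 1, 4 and 3 of the 8 fits, with the same sign throughout. All 6 of these calls were lost without iKO 1, iKO 2 or control 2, and 5 of them, all but that of Zdhhc7, without control 4. Those of Trim14, Azi2, Ppm1a and Relb were also lost without control 3, that of Trim14 without control 1 and that of Ppm1a without iKO 3 or 4 (adjusted p = 0.0510 to 0.136 over all of these). The Ppm1a call was also lost with no filter on low counts (0.125), by library size alone (0.115) and with the coarser clusters (0.0619).

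Irf7 was the 1 listed gene that rose in the whole sample (2.73 ± 0.21, edgeR quasi-likelihood adjusted p = 0.000804), where 46 were tested and 0 fell, beside 2.53% of all genes called. In CD8 T-like cells, where 3.69% of all genes were called, it was the 1 of 44 tested that was called, at 67.7, 74.0, 94.4 and 91.5 CPM in iKO and 17.9, 17.2, 27.9 and 10.1 in control (2.14 ± 0.23, 0.00119). It was also the 1 listed gene called in B-like, Treg-like, neutrophil-like, cDC2-like and CD4 T-like cells, where 1.42% to 2.97% of all genes were called, and none of 34 tested was called in mature DC-like cells, beside 0.0405% of all genes. Counts this small do not set the list apart from all genes.

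The end product of the pathway was barely captured. Ifnb1, which encodes interferon beta, gave 38, 63, 31 and 32 UMIs in iKO samples 1 to 4 and 4, 21, 83 and 1 in control, or 0.621, 0.698, 1.63 and 0.898 CPM against 0.170, 1.26, 3.18 and 0.0312 (-0.28 ± 0.94 log2, edgeR quasi-likelihood adjusted p = 0.889). Control 3 was the highest and control 4 the lowest of all 8 samples.

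Across 79 profiles of a class in a sample, a description over points that share libraries and classes, Tbk1 and Ikbke had a Pearson r of 0.51, Cgas and Sting1 0.27, Cgas and Ikbke 0.02, Sting1 and Ikbke -0.19, Sting1 and Tbk1 -0.27, and Cgas and Tbk1 -0.40 (log2(CPM + 10)). Among 7850 genes compared, those most like Cgas were Stard3nl (0.79), Lap3, an aminopeptidase (0.78), and Actr3, a subunit of the Arp2/3 actin nucleator (0.78). Sting1 was most like Selenow (0.87), Psmb1, a proteasome subunit (0.86), and Hsp90ab1, a chaperone (0.86). Ikbke was most like Lcp2, the adaptor SLP-76 (0.80), Atp1b3, a subunit of the sodium-potassium pump (0.75), and Zswim6 (0.75). Tbk1 was most like Zfp787 (0.65), Zfp654 (0.64) and Slain2 (0.64).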

How the data were processed

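UMI counts per gene and cell were deposited as 8 matrices, 1 per hashtagged sample; per the submitters' processing notes they were made with Cell Ranger 7.1.0 and GRCm39, and the values are raw counts, not normalized. The 92 spike-in and 4 hashtag features were left out, which leaves 32432 genes. Of 23731 barcodes, 1241 with under 300 genes or over 10% mitochondrial counts were removed, and then 438 doublets (1.95%; Scrublet score over 0.25), which left 22052 cells. Cells were clustered with scanpy 1.11.5 and leidenalg 0.10.2 (10000 counts per cell, log scale, 2000 variable genes, 30 principal components, 20 neighbours, Leiden resolution 2), with 987 genes kept out: the members, the listed pathway genes and interferon-stimulated genes picked by name among them. Clusters with conflicting, few or no markers stayed unnamed (738 cells).

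Counts were summed per sample and class (at least 20 cells, at least 3 samples per group) and tested with edgeR 4.0.16 in R 4.3.3 (quasi-likelihood test, TMM, filterByExpr, Benjamini-Hochberg over all genes, 0.05), after a check on simulated data. CPM is a count per 1000000 counts of the profile, and log values of CPM use a pseudocount of 1, or 10 for likeness between genes. Alternatives were DESeq2 1.42.0, no TMM factors, no filter, a replicate block, leaving out each sample, keeping doublets, at most 5% mitochondrial counts, 50 cells per profile, a pseudocount of 10 and thinning to 4000 UMIs. Leiden resolution 1 for genotype differences, and no TMM factors for class pairs, were added after seeing the data.

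The members and lists were chosen with earlier results of these data known, and the clustering was made repeatable after results had been seen. Named were the 4 members, Trex1 and Atrip, listed genes called in whole samples, monocyte/macrophage-like or CD8 T-like cells (at most 4 per group), and the 3 genes most like each member; Irf3 and Ifnb1 were added for their role after their values were seen. The 3 class pairs were chosen after the levels were seen. A promoter of Sting1 and member proteins were not used here. UMIs count molecules, and intervals and limits cover counting error only.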

Additional observations from a re-analysis of the deposited data

Results flagged for a closer look

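In groups of 4 samples, 80 sets of member levels were screened for a sample far from the others, which chance alone gives in about 1 in 20 groups, and 2 were found. Tbk1 in cDC1-like cells was at 27.4 CPM in iKO sample 2, above 18.8 to 19.9 in the other 3 iKO samples. Cgas in pDC-like cells was at 9.14 CPM in iKO sample 1, above 2.74 to 3.77 in the others, and rests on 3 UMIs against 1 in each of those.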

How the results depend on the processing

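Of the 191 alternative values for the 13 member differences in whole samples, monocyte/macrophage-like and CD8 T-like cells and for Cgas in cDC2-like cells, 184 kept direction and call. The exceptions were Cgas in cDC2-like cells, not called at Leiden resolution 1 (0.82) or in 5 of 8 fits without 1 sample (0.79 to 1.02 over all 8), and Tbk1 in CD8 T-like cells, called at resolution 1 (0.51); the cause was not tested. Without 1 sample, Cgas stayed called in all 8 fits in whole samples (0.81 to 0.87) and in monocyte/macrophage-like cells (0.92 to 1.11), as did Ikbke there (0.63 to 0.79).

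The number of genes called moved more. In whole samples it was 340 (228 higher, 112 lower), 1381 by DESeq2 (703 and 678), 708 with the replicate block and 108 to 488 without 1 sample. In monocyte/macrophage-like cells it was 1357 (720 and 637), 2082 by DESeq2, 385 to 1650 without 1 sample, and 1556 by library size alone (1082 and 474). In cDC2-like cells it was 214, 405 with no filter, 399 by DESeq2 and 21 to 386 without 1 sample. CD8 T-like cells gave 361, 572 by DESeq2, 980 with the block and 127 to 515 without 1 sample.

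The hashtag number was not taken to pair samples: deviations of same-numbered samples correlated at 0.60, 0.34, 0.07 and 0.67. Samples iKO 1 and iKO 4 correlated best with the control of the same number, but iKO 2 with control 1 (0.68) and iKO 3 with control 4 (0.52). With the replicate block Cgas differed by 0.84 in whole samples, 0.99 in monocyte/macrophage-like and 0.90 in cDC2-like cells, and Ikbke by 0.72 in monocyte/macrophage-like cells, all called; Cgas in cluster 17 (0.89, adjusted p = 0.102 by edgeR) and Ppm1a in monocyte/macrophage-like cells (-0.29, 0.0885) were not.

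Values that changed sign were all uncalled. Without 1 sample, Sting1 ranged from -0.31 to 0.02 in B-like cells, -0.08 to 0.09 in Treg-like cells, -0.13 to 0.53 in cluster 0 and -0.19 to 0.25 in cluster 17. Tbk1 ranged from -0.02 to 0.30 in CD4 T-like cells, -0.13 to 0.28 in neutrophil-like cells, -0.03 to 0.11 in cluster 2 and -0.14 to 0.27 in cluster 17, and Ikbke from -0.32 to 0.13 in CD4 T-like cells and -0.03 to 0.30 in cluster 14. With doublets kept, Sting1 in B-like and Ikbke in CD4 T-like cells were both at 0.02. With the block, Sting1 in Treg-like cells was at -0.01 and Tbk1 in cluster 17 at -0.09; at resolution 1, Sting1 in Treg-like cells was at -0.03; by library size alone, Sting1 was at 0.04 in cluster 17 and at -0.11 in monocyte/macrophage-like against CD8 T-like cells. With a pseudocount of 10, Ikbke in B-like over cDC2-like cells was at 0.02. Cgas and Ikbke in the classes below the low-count filter were not tested.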
